A study of Mus musculus with 12 samples.

Results

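Cell cycle and DNA replication genes were followed in ribosome-bound RNA of the neonatal mouse inner ear. The set held 34 genes chosen by symbol: 14 of DNA replication and the entry into S phase, and 20 of mitosis. All 34 were listed in both organs, among 28342 genes in the cochlea and 24726 in the vestibule. The study used RiboTag mice, in which Cre recombinase switches a ribosomal protein to an HA-tagged form, and ribosomes with their RNA were pulled down through the tag. Every animal was RiboTagHA/HA and carried Cre in the Gfi1 locus, so that heterozygotes were Gfi1Cre/+;RiboTagHA/HA and mutants Gfi1Cre/Cre;RiboTagHA/HA. Heterozygotes kept 1 unmodified Gfi1 copy and served as the controls, and no animal without Cre was compared. Cre was driven by the Gfi1 locus, so the mutants carried Cre on both copies, and the dose of Cre and the loss of Gfi1 cannot be told apart. Tissue was taken at postnatal day 0 to 1 from the cochlea, the organ of hearing, where the labels name enriched hair cells, and from the vestibule, the organs of balance, where they name enriched vestibular cells. Each genotype and organ had 3 libraries, 12 in all, described in the labels as independent biological triplicates.

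The products of these genes copy and divide the genome. In late G1, cyclin E with Cdk2 releases E2F factors such as E2f1, which switch on the genes of replication. The Mcm2 to Mcm7 proteins then form the helicase that opens DNA at origins, ribonucleotide reductase and thymidylate synthase supply nucleotides, and Pcna clamps the polymerases to the template. In G2 and mitosis, Cdk1 with cyclins A and B, Aurora and Polo-like kinases, kinetochore proteins and kinesins separate the chromosomes, and the APC/C ends the division. Hair cells of the cochlea leave the cell cycle before birth and do not divide again in mammals. Glia, mesenchyme and endothelium around them still divide in the newborn.

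Short motifs were counted in the promoters of both classes. RefSeq promoters of GRCm38.p6, taken from 250 bases before to 50 after the start, were held for 29 of the 34 genes; Ccne2, Mcm4, Ccna2, Aurkb and Tpx2 had no entry. A gene with several entries, such as Mcm7 and Uhrf1, counted when any entry held the word, whereas the shares over all promoters are per entry. Words of the E2F type (TTCCCGC or TTCGCGC or TTGCCGC or TTGGCGC, either strand, overlaps counted) were searched first. They occurred in 7 of 12 replication genes and 3 of 17 mitosis genes, against 9.57% of 32851 promoters. CHR words (TTTGAA or TTCGAA, either strand) are the element read by the MuvB complexes of late cell cycle genes. They occurred in 2 of 12 replication genes and 13 of 17 mitosis genes, against 19.2% of all promoters. CCAAT, the NF-Y word, occurred in 9 and 15 of them, against 37.4%. CHR and CCAAT stood together in 2 replication and 13 mitosis genes, against 7.52% of all promoters. These matches describe the letters only and were given no test. The 250 bases before the start are shown for the 2 genes of each class with the highest levels over the 12 libraries that hold a motif, 5′ to 3′ on the strand of the gene. Capitals mark every E2F, CHR and CCAAT word. The Mcm6 stretch lies at chr1:128359706-128359955 on the minus strand, that of Rrm1 at chr7:102441445-102441694 on the plus strand, that of Mki67 at chr7:135716380-135716629 on the minus strand and that of Top2a at chr11:99024190-99024439 on the minus strand.
Mcm6: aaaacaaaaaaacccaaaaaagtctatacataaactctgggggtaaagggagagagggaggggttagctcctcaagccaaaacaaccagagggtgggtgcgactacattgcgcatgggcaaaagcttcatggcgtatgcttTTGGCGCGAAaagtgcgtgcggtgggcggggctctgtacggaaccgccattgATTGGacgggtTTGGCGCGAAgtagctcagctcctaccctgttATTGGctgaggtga
Rrm1: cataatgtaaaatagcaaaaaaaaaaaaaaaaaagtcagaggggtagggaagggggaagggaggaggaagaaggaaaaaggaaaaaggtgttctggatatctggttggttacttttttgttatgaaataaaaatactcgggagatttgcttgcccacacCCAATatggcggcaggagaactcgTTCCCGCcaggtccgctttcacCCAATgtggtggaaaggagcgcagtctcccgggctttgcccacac
Mki67: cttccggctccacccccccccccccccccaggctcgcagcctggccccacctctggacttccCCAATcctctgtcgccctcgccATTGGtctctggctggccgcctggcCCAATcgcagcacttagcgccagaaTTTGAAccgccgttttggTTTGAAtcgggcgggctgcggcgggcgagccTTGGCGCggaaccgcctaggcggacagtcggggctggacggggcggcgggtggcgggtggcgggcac
Top2a: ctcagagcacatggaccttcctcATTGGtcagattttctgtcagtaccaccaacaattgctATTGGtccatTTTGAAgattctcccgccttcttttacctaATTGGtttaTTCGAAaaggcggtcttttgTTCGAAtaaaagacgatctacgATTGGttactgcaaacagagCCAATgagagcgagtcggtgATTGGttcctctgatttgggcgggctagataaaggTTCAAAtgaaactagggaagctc
The Mcm6 and Rrm1 stretches held E2F and CCAAT words and no CHR word. The Top2a stretch held 4 CHR and 6 CCAAT words and no E2F word, and that of Mki67 held all 3 kinds.

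Levels are given as CPM, counts per 1000000 reads of a library. The total ranged from 7531518 to 9363796 reads for cochlear libraries, where 1 read was worth 0.107 to 0.133 CPM, and from 18951026 to 29370267 for vestibular ones, where it was worth 0.0340 to 0.0528 CPM. The cochlea was prepared with a NuGEN kit for very low input and the vestibule with a directional NEBNext kit, so organ and kit cannot be told apart. Gfi1 fell by 0.90 (SE 0.16) on the log2(CPM + 1) scale in the cochlea and fell by 1.19 (SE 0.13) in the vestibule (limma, adjusted p = 0.00355 and 0.00234), with every mutant library below every heterozygous one. Hair cell markers were abundant (sums of 12 genes from 3001 to 5097 CPM over cochlear and from 8659 to 9743 CPM over vestibular libraries), yet markers of other cells were also present in every library. The macrophage sum ranged from 2284 to 3379 CPM over cochlear and from 6927 to 9198 CPM over vestibular libraries. The mesenchymal sum ranged from 1269.7 to 1609 CPM and from 1082 to 2572 CPM. Granulocyte markers were lower and neuronal markers higher in mutants of both organs, without overlap of their sums (80.0 to 131 CPM against 12.1 to 13.3 CPM and 1323 to 1519 CPM against 2296 to 2389 CPM in the vestibule).

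In the vestibule, cell cycle RNA stood lower in mutants across the set, a description that was given no test. The 34 genes were chosen with earlier results of these data known, and all were read from the same 6 libraries. All 34 genes had a negative log2 fold change in the main fit, against 58.5% of the 15595 genes tested. The median was -0.34 against -0.06 over all genes. After either rescaling of the CPM, which turned the sign of Ccne2, 33 were negative. Over the 22 ways of running the fit 31 to 34 were negative, with 31 for the block without both libraries numbered 2. No single gene passed limma at an adjusted p under 0.05 when the libraries were treated as unpaired (background 3.5% in either direction and 1.09% lower), and 12 were lower at an unadjusted p under 0.05, against 8.2% of all genes. edgeR called none (background 3.36% in either direction) and DESeq2 called Uhrf1 and Mcm5 lower (background 2.71% lower). Libraries with the same number deviated together, however, and with the number as a replicate block 16 of the 34 genes fell and none rose, against 12.8% of all genes lower and 10.5% higher. The 16 were Mcm2 to Mcm7, Rrm1 and Uhrf1 among 14 replication genes and Mki67, Top2a, Ccnb2, Birc5, Cenpe, Kif23, Tpx2 and Ube2c among 20 mitosis genes. Fewer dividing cells, less of these RNAs per cell and a changed share of other cell types cannot be told apart in this pulled-down RNA.

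**Figure D1:**
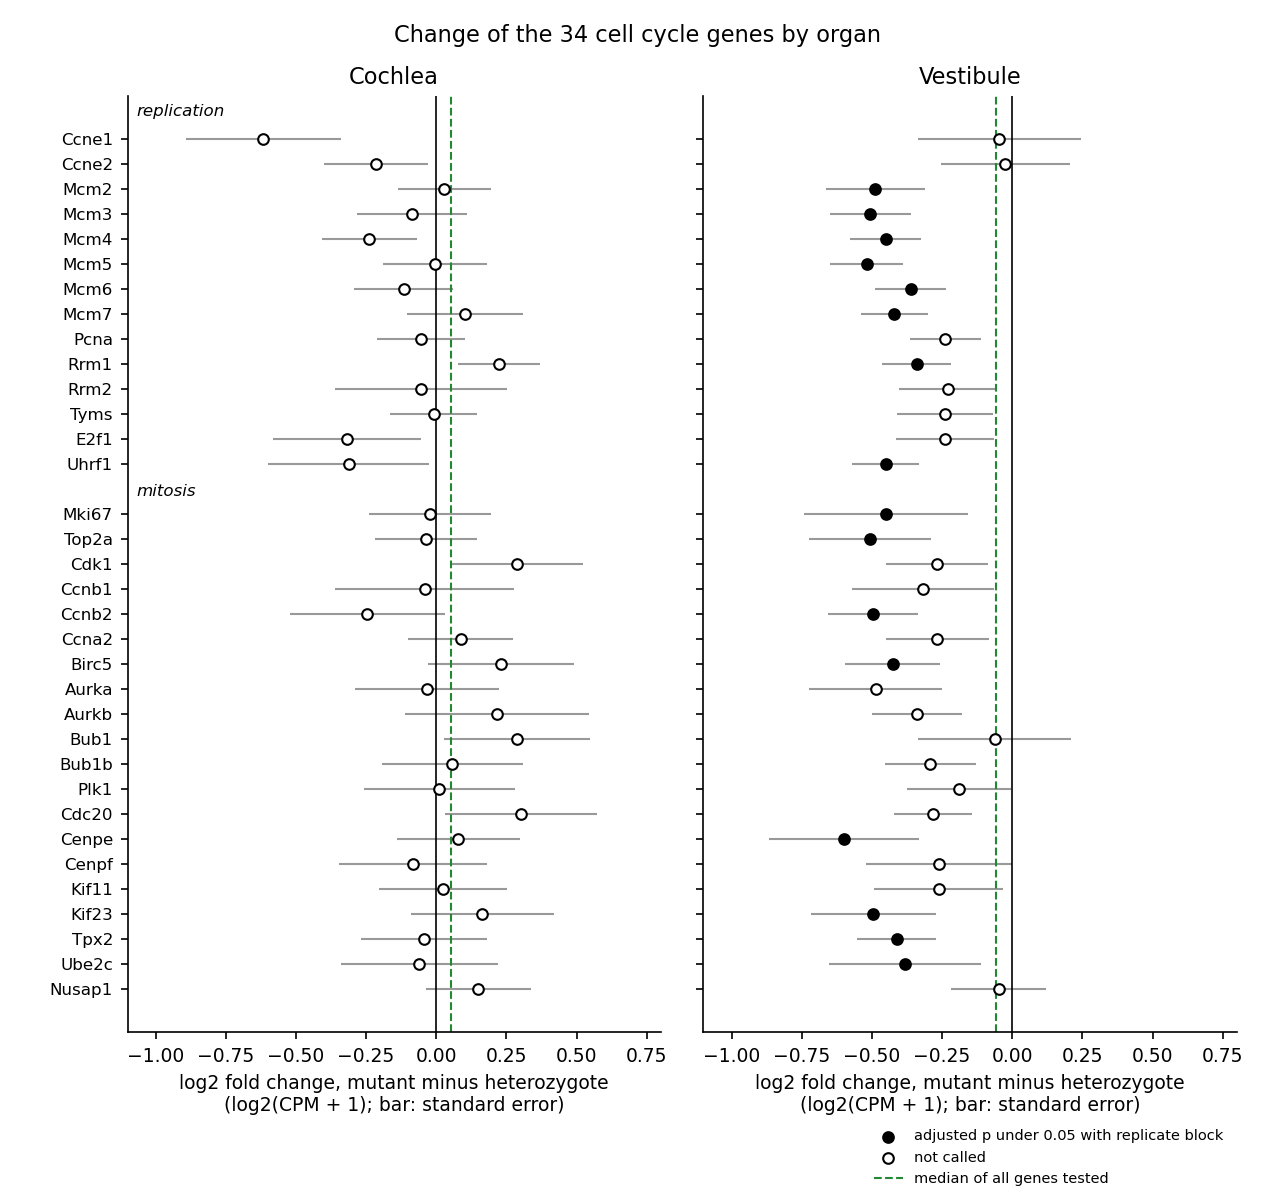
Mutant minus heterozygote log2(CPM + 1) of the 34 genes in each organ, with the standard error of the unpaired fit as a bar; filled points passed an adjusted p under 0.05 with the replicate block and the dashed line is the median of all genes tested. All 34 points lie left of 0 in the vestibule, and 19 do in the cochlea.

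The 6 subunits of the MCM helicase moved together in the vestibule. Mcm5 (GRCm38 chromosome 8, 75109569 to 75128439) had 126, 136 and 109 CPM in heterozygotes 1 to 3 and 89.7, 87.1 and 80.4 CPM in mutants 1 to 3. All mutants lay below all heterozygotes. Its log2 fold change was -0.52 (SE 0.13, adjusted p = 0.0766; with the block SE 0.08, adjusted p = 0.000469). Mcm3 (chromosome 1, 20802968 to 20820312) had 130.0, 105 and 97.9 CPM in heterozygotes and 82.6, 79.6 and 70.2 CPM in mutants, again without overlap, a change of -0.50 (SE 0.15; adjusted p = 0.12, with the block 0.00077).

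Mcm2 (chromosome 6, 88883474 to 88898780) had 116, 95.3 and 83.7 CPM in heterozygotes and 84.3, 66.7 and 59.0 CPM in mutants. The groups overlapped because the third heterozygote lay just below the first mutant, although each mutant was lower than the heterozygote of its own number, by 0.46 to 0.51. The change was -0.49 (SE 0.18; adjusted p = 0.224, with the block SE 0.08 and adjusted p = 0.000796). Mcm4 had 74.5, 67.7 and 63.3 CPM in heterozygotes and 53.0, 48.8 and 47.4 CPM in mutants (change -0.45, adjusted p with the block 0.00264). Mcm7 had 99.9, 119 and 107 CPM against 78.9, 81.0 and 82.2 CPM (change -0.42, adjusted p with the block 0.00264). Neither gene overlapped between groups. Mcm6 had the highest CPM of the replication genes, with 165, 151 and 137 CPM in heterozygotes and 126, 108 and 118 CPM in mutants (change -0.36, adjusted p with the block 0.00558), also without overlap. Of the exon bases of Mcm7, 12.6% are shared with other genes, among them Ap4m1 and Cops6 on the other strand, and without a stated strand setting reads there cannot be assigned.

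Of the genes that feed and follow the fork, Rrm1 and Uhrf1 fell with the block and Pcna, Rrm2 and Tyms did not pass. Uhrf1, which brings the maintenance methyltransferase to newly copied DNA, had 66.8, 74.9 and 67.6 CPM in heterozygotes and 51.2, 49.99 and 50.9 CPM in mutants. The mutants had an SD of 0.62 CPM (n = 3) and lay below every heterozygote, and the change was -0.45 (SE 0.12; adjusted p = 0.0937, with the block 0.00308, DESeq2 0.0341). Rrm1, the large subunit of ribonucleotide reductase, had 121, 131 and 108 CPM in heterozygotes and 90.2, 92.7 and 100.002 CPM in mutants (change -0.34; adjusted p = 0.225, with the block 0.0153). Its groups did not overlap. Pcna had 80.5 to 85.0 CPM in heterozygotes against 62.8 to 78.0 CPM in mutants, which did not overlap either, yet its change of -0.24 missed the threshold in both fits (adjusted p with the block 0.0695). Rrm2, the small subunit, had a change of -0.23 and Tyms of -0.24, both with overlapping groups.

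The E cyclins, which open S phase, showed the smallest changes of the replication class. Ccne1 and Ccne2 had changes of -0.05 and -0.02 (SE 0.29 and 0.23), with 4.77 to 8.08 and 3.93 to 4.77 CPM in heterozygotes and 4.63 to 8.71 and 3.38 to 5.39 CPM in mutants. E2f1 had 16.8 to 19.3 CPM in heterozygotes against 13.8 to 18.1 CPM in mutants (change -0.24, adjusted p with the block 0.261). All 3 overlapped between groups. Of the exon bases of Ccne2, 17.4% are shared with Ints8 on the other strand.

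**Figure D2:**
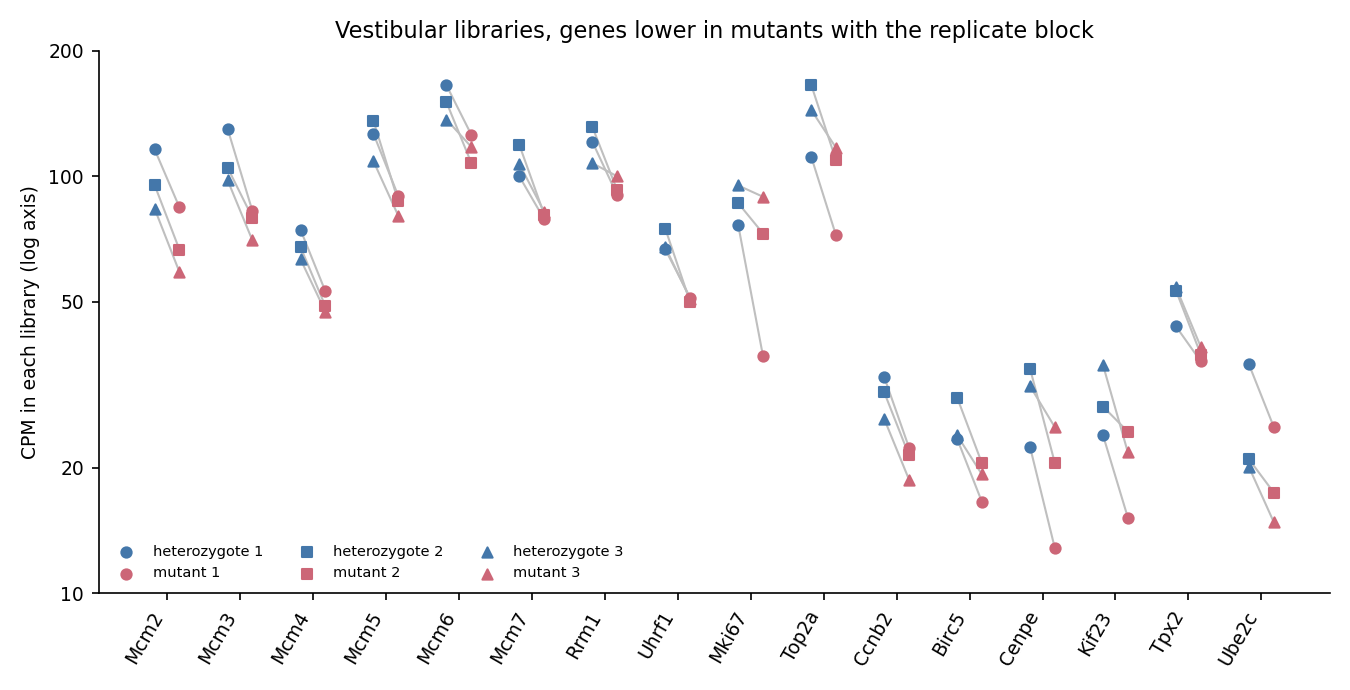
CPM (log axis) in each of the 6 vestibular libraries for the 16 genes that were lower in mutants with the replicate block; blue points are heterozygotes, red points mutants, marker shapes the library number, and grey lines join libraries of the same number. Every one of the joined lines slopes down, and mutant 1 is the lowest point for Mki67, at 37.0 CPM, and for Cenpe, at 12.8 CPM.

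Among the mitosis genes the spread between libraries was wider and library 1 stood apart. Mutant 1 was the lowest of the 6 libraries for 14 of the 20 mitosis genes, and for 3 of the 14 replication genes. Mki67, whose protein coats mitotic chromosomes and marks cycling cells, had 76.2, 86.2 and 95.1 CPM in heterozygotes and 37.0, 72.9 and 89.3 CPM in mutants. Mutant 3 lay among the heterozygotes, mutant 2 just below them and mutant 1 far below, with a change of -0.45 (SE 0.29; adjusted p = 0.52, with the block 0.0311). Mki67 was not called with the block when both libraries numbered 1 were left out, nor by edgeR with the block (adjusted p = 0.087). Top2a, which untangles the copied strands, had 111, 166 and 144 CPM in heterozygotes and 72.1, 109 and 117 CPM in mutants. The groups overlapped, but each mutant was lower than its numbered heterozygote, by 0.62, 0.60 and 0.30, and the change was -0.51 (SE 0.22; adjusted p = 0.304, with the block SE 0.09 and adjusted p = 0.000846).

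Cyclin B2 and the passenger complex member survivin were lower without overlap. Ccnb2 had 33.0, 30.4 and 26.2 CPM in heterozygotes and 22.4, 21.4 and 18.8 CPM in mutants (change -0.50, SE 0.16; adjusted p = 0.169, with the block 0.009). Birc5, the survivin gene, had 23.5, 29.5 and 23.9 CPM in heterozygotes and 16.6, 20.5 and 19.3 CPM in mutants (change -0.43; adjusted p = 0.269, with the block 0.0284). Tpx2, the activator of Aurora A on the spindle, had 43.7, 53.2 and 54.1 CPM in heterozygotes and 36.0, 37.4 and 39.0 CPM in mutants (change -0.41; adjusted p = 0.191, with the block 0.0103). In these 3 genes every mutant lay below every heterozygote.

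Motor proteins of the kinetochore and midzone and an enzyme of the APC/C were lower in every numbered pair, with overlapping groups. Cenpe, the kinetochore kinesin, had 22.4, 34.6 and 31.4 CPM in heterozygotes and 12.8, 20.5 and 25.02 CPM in mutants, the largest change of the 34 genes at -0.60 (SE 0.27; adjusted p = 0.321, with the block SE 0.14 and adjusted p = 0.00534). Kif23, the centralspindlin kinesin of the cleavage furrow, had 23.9, 28.1 and 35.2 CPM against 15.2, 24.4 and 21.8 CPM (change -0.49; adjusted p = 0.328, with the block 0.017). Ube2c, the ubiquitin-conjugating enzyme of the APC/C, had 35.4, 20.97 and 20.1 CPM against 25.1, 17.5 and 14.8 CPM (change -0.38; adjusted p with the block 0.0477), and edgeR with the block did not call it (adjusted p = 0.0629). Of the exon bases of Ube2c, 22.8% are shared with Tnnc2 on the other strand.

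The other 12 mitosis genes did not pass in either fit, with changes from -0.49 to -0.05. Aurka, the Aurora kinase of the spindle poles, had the largest, with 15.5 to 26.2 CPM in heterozygotes against 11.6 to 16.99 CPM in mutants (change -0.49, adjusted p with the block 0.0737). Aurkb, the Aurora kinase of the passenger complex, and Cdc20, the activator of the APC/C, had non-overlapping groups. Aurkb had 25.8 to 32.3 against 19.9 to 23.4 CPM and Cdc20 39.4 to 42.1 against 31.3 to 37.5 CPM. With the block their adjusted p was 0.0707 and 0.0854. Cdk1 and its cyclins Ccnb1 and Ccna2 had changes of -0.27, -0.32 and -0.27 with overlap. Checkpoint genes differed, with -0.29 for Bub1b and -0.06 for Bub1. Plk1, Cenpf and Kif11 had -0.19, -0.26 and -0.26, and Nusap1, a microtubule-binding spindle protein, had -0.05 (SE 0.17), with 23.7 to 31.0 CPM in heterozygotes against 23.4 to 29.6 CPM in mutants.

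Counted over the libraries without a model, all mutants lay below all heterozygotes in 13 of the 34 genes, 8 of replication and 5 of mitosis, against 11.6% of all genes tested, and none lay wholly above. In 26 genes the mutant was lower in all 3 numbered pairs, against 31.8% of all genes. The block was also fitted on 4 libraries, which leaves little spread of its own to each gene and borrows most of it from the other genes. With the block and both libraries numbered 1 left out 14 genes were lower, 13 of them among the 16 (background 11.8%). With both numbered 2 left out 11 were lower, all among the 16 (background 9.54%), and with both numbered 3 left out 19 were lower, 14 of them among the 16 (background 10.2%). After TMM rescaling the block gave 14, all among the 16 and without Mki67 and Ube2c (background 10.2%), and edgeR with the block gave the same 14 (background 9.73%).

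Markers of some other cell types were also lower in the vestibular mutants. Granulocyte sums stood at 12.3% of the heterozygote mean there and at 15.5% in the cochlea, and neuronal sums at 169% and 193%. The 10 mesenchymal markers, among them Col1a2, Col3a1 and Tbx18, had sums of 1954 to 2572 CPM against 1082 to 1481 CPM in the mutant libraries (58.0% of the heterozygote mean), and 9 of 10 were lower with the block, against 12.8% of all genes. The 10 markers of Schwann cells and satellite glia summed to 352 to 382 CPM and 204 to 241 CPM (59.4%), with 7 of 10 lower with the block, and 8 endothelial markers to 86.0 to 133 CPM and 56.3 to 85.8 CPM (68.0%), with 5 of 8 lower with the block. The replication genes stood at 75.7% of their heterozygote mean and the mitosis genes at 77.5%. The summed hair cell, supporting cell and macrophage markers overlapped between genotypes, although single markers did not: with the block 5 of 12 hair cell markers were higher and 3 lower (Gfi1 among them), 3 of 12 supporting cell markers were higher and 2 lower, and 4 of 12 macrophage markers were lower. The part of the mesenchymal, glial and endothelial RNA in the fall of the cell cycle genes was not tested.

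**Figure D3:**
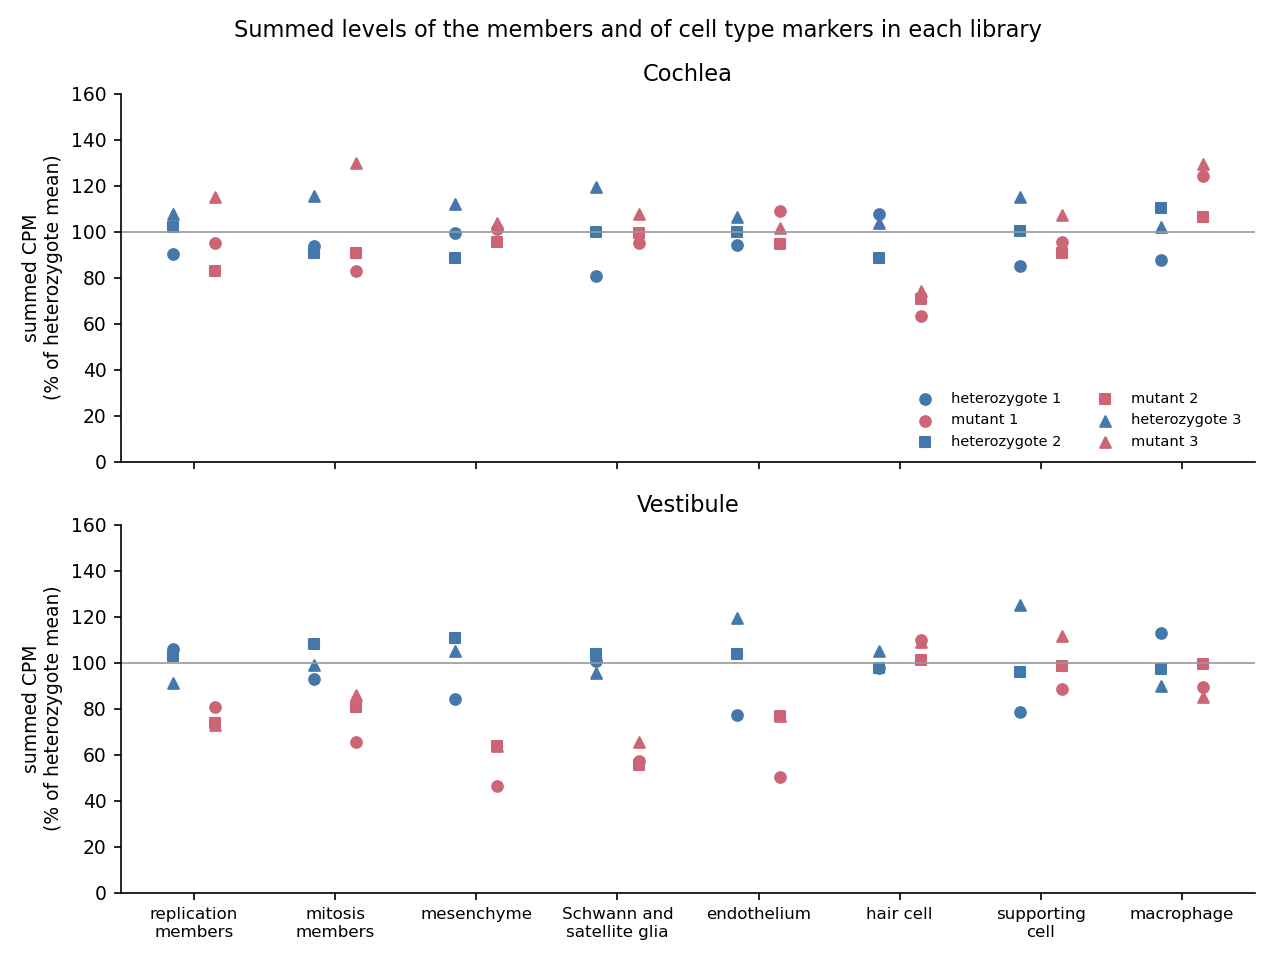
Summed CPM of the 14 replication genes, the 20 mitosis genes and 6 marker lists in each library, as a percentage of the heterozygote mean of the organ (blue heterozygotes, red mutants, marker shape by library number). In the vestibule mutants lie below heterozygotes for both classes and for mesenchyme, glia and endothelium. In the cochlea only the hair cell sums separate among the lists drawn. Granulocyte and neuronal sums, which are not drawn, separated in both organs.

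In the cochlea no cell cycle gene was called on the full set of libraries. limma called 0 of 34 without the block and with it, where it called 4.41% and 8.52% of the 17985 genes. edgeR called 0 of 34 (background 4.52%), edgeR with the block 0 (background 7.77%) and DESeq2 0 (background 5.31%). Ccne1 alone had an unadjusted p under 0.05 in the unpaired fit, against 12.1% of all genes. Signs were mixed, 19 negative and 15 positive (background 40.8% negative), with a median of -0.02 against 0.05 over all genes. The replication genes had a median of -0.07 and 11 of 14 negative signs, and the mitosis genes a median of 0.04 and 8 of 20. After TMM rescaling the medians were -0.12 and -0.01, so the sign of the mitosis median depends on the scaling. It depends more on single libraries: leaving out any 1 of the 6 in turn gave 6 to 13 negative replication genes, with a median of 0.02 without mutant 2, and 2 to 16 negative mitosis genes, with 16 without mutant 3, 14 without heterozygote 1 and 2 to 5 without any of the other 4. In none of the 34 genes did the groups separate in either direction, against 7.77% of all genes with mutants wholly below and 9.74% wholly above.

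The spread in the cochlea was wide. Mutant 3 was the highest of the 6 libraries for 8 of 14 replication and 12 of 20 mitosis genes, and mutant 1 the lowest for 6 and 9. Mki67 had 218, 229 and 312 CPM in heterozygotes and 192, 209 and 370.5 CPM in mutants, so that mutants held both the lowest and the highest value (change -0.02, SE 0.22). Top2a did the same, with 114, 127 and 122 CPM in heterozygotes and 90.4, 110.2 and 165 CPM in mutants (change -0.04, SE 0.18). Cenpf, a large kinetochore protein, had 223, 87.1 and 187 CPM in heterozygotes and 173, 129 and 138 CPM in mutants (change -0.08, SE 0.26). With the block, Cenpf was called lower when both libraries numbered 2 were left out (background 4.65%), and Ccne1 when both numbered 3 were left out (background 3.6%).

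Replication genes in the cochlea were as scattered. Ccne1 had 5.21, 6.64 and 3.74 CPM in heterozygotes and 2.37, 2.58 and 4.17 CPM in mutants, the largest change of the set at -0.62 (SE 0.28, adjusted p = 0.388), on 19 to 50 reads a library. The first and second mutants lay below all heterozygotes and the third among them. E2f1 had 4.45, 8.36 and 7.48 CPM against 4.37, 5.03 and 5.91 CPM (change -0.32, adjusted p = 0.781). Uhrf1 had 13.8, 14.7 and 19.1 CPM against 9.12, 9.55 and 22.004 CPM (change -0.31, adjusted p = 0.819), with the third mutant the highest of the 6. Mcm6 had 55.6, 57.4 and 79.6 CPM against 64.0, 46.5 and 66.9 CPM, Rrm1 50.6, 62.7 and 54.5 CPM against 61.5, 58.8 and 76.4 CPM, and Mcm4 38.0, 45.01 and 42.7 CPM against 37.9, 27.6 and 41.9 CPM. Each of these 3 overlapped between groups, with changes of -0.12, 0.22 and -0.24.

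Among mitosis genes, the largest cochlear changes were positive. Cdc20 had 4.06, 3.19 and 6.62 CPM in heterozygotes and 4.87, 6.32 and 6.02 CPM in mutants (change 0.30, SE 0.27). Cdk1 had 7.62, 9.03 and 13.2 CPM against 10.7, 11.7 and 14.01 CPM (change 0.29, SE 0.23), and Bub1 9.02, 10.4 and 12.9 CPM against 10.2, 11.0 and 20.4 CPM (change 0.29, SE 0.26). None came near the threshold, with adjusted p of 0.807, 0.765 and 0.81. The 95% intervals of the cochlear changes reached from -1.21 to 0.92 over the 34 genes, and 26 of them included the median vestibular change of -0.34. A change of that size could go undetected in most of these genes at the spread of these libraries. Mesenchymal, glial, endothelial and supporting cell marker sums overlapped between genotypes in the cochlea, and the hair cell sum was 4190 to 5097 CPM in heterozygotes against 3001 to 3518 CPM in mutants.

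The organs were compared by the cochlear change minus the vestibular change in 1 fit of the 12 libraries. That fit gave each gene a single spread over both organs, although the kits differed and each organ was otherwise fitted alone. The difference was positive for 31 of the 34 genes, with a median of 0.35 against 0.11 over the 14674 genes tested in both organs. No gene passed without the block in limma (background 3.14%), edgeR (3.52%) or DESeq2 (5.55%). In limma 3 genes, Rrm1, Mcm5 and Mcm2, had a positive difference at an unadjusted p under 0.05, against 6.56% of all genes. With the block 5 were higher, against 6.9% of all genes: Mcm2 and Mcm5 (difference 0.52 for each, adjusted p = 0.0228 and 0.0424), Rrm1 (0.56, 0.0283), Cenpe (0.68, 0.0371) and Kif23 (0.66, 0.0399). For the other 29 genes a different response of the organs was not detected. Because each organ had its own kit, a difference in response cannot be told apart from one in library preparation.

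Replication and mitosis genes were set against each other in each library through the mean log2(CPM + 1) of each class. In the vestibule the replication mean was 5.56 to 5.77 in heterozygotes and 5.28 to 5.47 in mutants, and the mitosis mean 5.02 to 5.22 and 4.58 to 4.87. Both classes were apart between genotypes, by -0.33 and -0.34. The replication mean minus the mitosis mean was 0.49 to 0.75 in heterozygotes and 0.41 to 0.89 in mutants, so the balance of the classes overlapped, and libraries numbered 1 had the largest value of each genotype. In the cochlea that difference was -0.08 to 0.19 in heterozygotes and -0.29 to 0.20 in mutants, again with overlap. Summed over each class, vestibular replication RNA was 939 to 1091 CPM in heterozygotes against 749 to 831 CPM in mutants, and mitotic RNA 738 to 859.9 CPM and 522 to 684 CPM. In the cochlea the sums were 342 to 408 and 313 to 435 CPM for replication and 776 to 986 and 707 to 1108 CPM for mitosis.

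Per kilobase of exon, Mki67 led the heterozygous cochlea and Pcna and the MCM genes led the heterozygous vestibule. Cochlear Mki67 stood at 25.2 CPM per kb, with 21.7 to 31.1 over the libraries, above Mcm6 at 13.8 (11.9 to 17.1) and Top2a at 13.5 (12.7 to 14.1), which overlapped each other. Vestibular Pcna stood at 34.3 CPM per kb (33.5 to 35.4), Mcm6 at 32.3 (29.3 to 35.4), Mcm5 at 31.0 and Mcm3 at 29.6, and these neighbours overlapped. Mki67 was at 8.53 CPM per kb there. At the low end of the vestibule were Ccne1 at 2.33 and Ccne2 at 1.24 CPM per kb, and of the cochlea Ccne1 at 1.95 and Ccnb1 at 1.78. GENCODE M21 lists pseudogenes named for Pcna, Tyms, Ccnb1 and Ccnb2, so the share of reads those genes may lose to or gain from copies is uncertain.

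Beyond the 34 genes, 126 genes in 8 lists of the same pathway were counted. In the vestibule 107 of the 124 tested had negative changes (58.5% of all genes), with a median of -0.32 against -0.06, and without the block 2 were higher (Cdc25b, Cdkn1a) and 1 lower (Pole), where 3.5% of all genes were called. With the block 34 of 124 (27.4%) were lower and 2 higher, against 12.8% and 10.5% of all genes. By list, those lower with the block were 13 of 24 for spindle, condensin and cytokinesis, 8 of 24 for the replication fork and nucleotides, 5 of 7 for G1 cyclins and kinases, 3 of 15 for the kinetochore and checkpoint, 2 of 17 for origin licensing and firing, 1 of 18 for pocket proteins and E2F/DREAM, 1 of 5 CDK inhibitors and 1 of 14 for mitotic entry and exit. By this count the licensing, pocket protein and entry and exit lists were at or below the share over all genes. The licensing list nonetheless had 14 of 17 negative changes and a median of -0.36, against -0.06 over all genes. Its sums were 364 to 376 CPM in heterozygotes against 305 to 326 CPM in mutants, without overlap. The pocket protein and entry and exit sums overlapped. In the cochlea 43 of 123 changes were negative (40.8% of all genes), with a median of 0.06 against 0.05, and without the block 1 gene was higher (Racgap1) and 3 were lower (Cdkn1c, Cdkn2d, Rpa1). These 4 calls are near the 4.41% of all cochlear genes that were called.

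**Figure D4:**
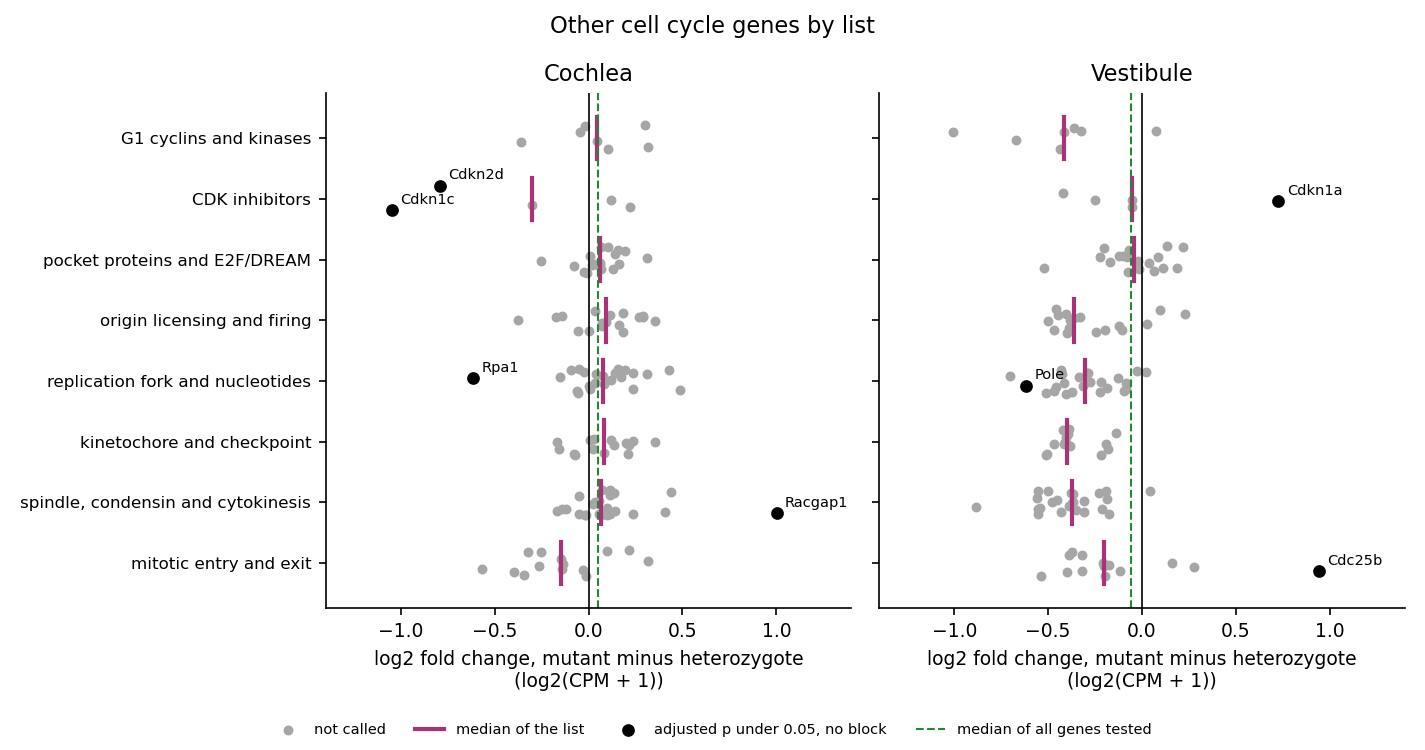
Mutant minus heterozygote log2(CPM + 1) of each tested gene in the 8 pathway lists (points, spread vertically only for legibility), with black points for an adjusted p under 0.05 without the block, a bar for the list median and a dashed line for the median of all genes tested. In the vestibule the medians of all lists except pocket proteins and CDK inhibitors lie left of the dashed line, and in the cochlea those of CDK inhibitors and mitotic entry and exit do so most clearly.

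CDK inhibitors hold postmitotic cells in arrest. Of the 5 tested, Cdkn1a rose in the vestibule and Cdkn1c and Cdkn2d fell in the cochlea. Cdkn1a, the p21 inhibitor that p53 induces, had 64.8, 67.2 and 62.6 CPM in vestibular heterozygotes and 99.5, 116 and 109 CPM in mutants, which did not overlap. It rose by 0.73 (SE 0.12, adjusted p = 0.0143), although leaving out 1 library could raise the adjusted p to 0.0877. In the cochlea it had 20.7 to 23.1 CPM in heterozygotes against 15.7 to 21.4 CPM in mutants (change -0.30, adjusted p = 0.604), and the organs differed by -1.03 (SE 0.20, adjusted p = 0.00864).

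Cdkn1c, the p57 inhibitor, had 120.0, 242 and 251 CPM in cochlear heterozygotes and 93.7, 78.7 and 110.1 CPM in mutants. The groups did not overlap, with the first heterozygote much nearer the mutants, and the change was -1.05 (SE 0.23, adjusted p = 0.0187). Without heterozygote 2, mutant 1 or mutant 2 the adjusted p was 0.0669 to 0.113. Of the exon bases of Cdkn1c, 30.7% are shared with a gene on the other strand. Cdkn2d, an INK4 inhibitor that keeps hair cells out of the cycle, had 52.6, 38.5 and 39.7 CPM in cochlear heterozygotes and 18.6, 28.5 and 27.6 CPM in mutants (change -0.79, SE 0.19, adjusted p = 0.029, up to 0.167 without 1 library). The hair cell marker sum was lower in the same libraries, at 69.4% of the heterozygote mean, and its part in the change of Cdkn2d was not tested. In the vestibule Cdkn2d had a change of -0.42 with overlap (adjusted p = 0.377, with the block 0.00109). Cdkn1b, the p27 inhibitor of supporting cells, had changes of 0.12 in the cochlea and -0.05 in the vestibule, and Rb1, the retinoblastoma gene, of 0.07 and 0.08, all with overlapping groups.

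**Figure D5:**
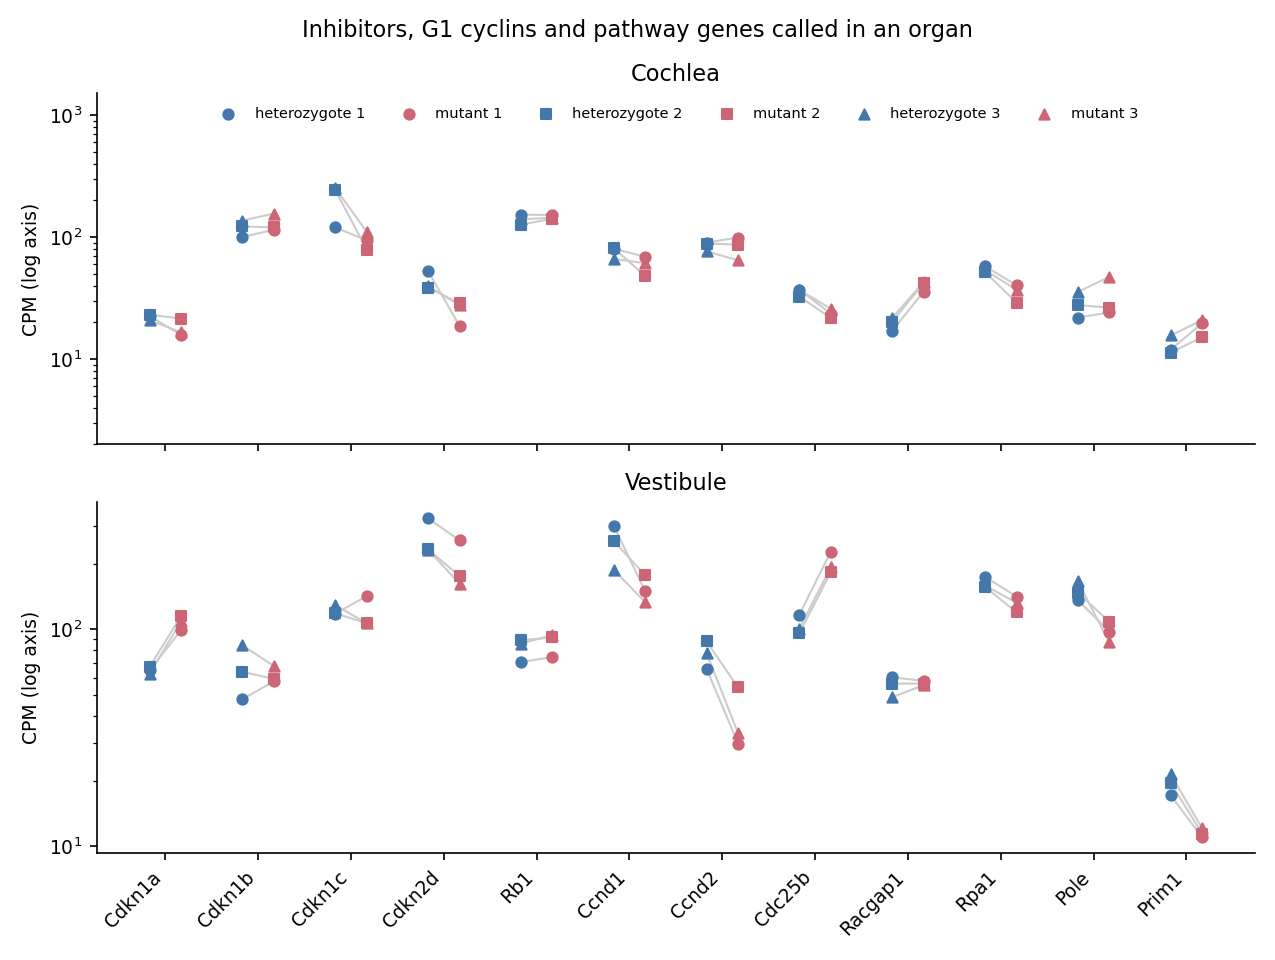
CPM (log axes, on different ranges for the organs) in each library for CDK inhibitors, Rb1, D cyclins and the pathway genes called in an organ or between organs; blue points are heterozygotes, red points mutants, shapes the library number, and lines join libraries of the same number. Mutants lie above heterozygotes for Cdkn1a and Cdc25b in the vestibule and for Racgap1 in the cochlea. They lie below them for Ccnd1, Ccnd2, Rpa1, Pole and Prim1 in the vestibule and for Cdkn1c, Cdkn2d, Rpa1 and Cdc25b in the cochlea.

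D cyclins, which start G1 progression with Cdk4 and Cdk6, were lower in the vestibular mutants. Ccnd2 had 66.0, 88.0 and 78.0 CPM in heterozygotes and 29.8, 54.1 and 33.3 CPM in mutants, without overlap, a change of -1.01 (SE 0.23; adjusted p = 0.0571, with the block 1.75e-05). Ccnd1 had 301, 256 and 188 CPM against 149.97, 178 and 133 CPM, also without overlap (change -0.67; adjusted p = 0.115, with the block 0.000178). In the cochlea their changes were -0.05 and -0.36 with overlap, and neither passed limma with the block (adjusted p = 0.889 and 0.0759). edgeR with the block called Ccnd1 lower there (adjusted p = 0.0429), and each mutant was below the heterozygote of its number. Of the exon bases of Ccnd1, 23.4% are shared with a gene on the other strand.

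Among the 24 genes of the replication fork list, Pole was the call in the vestibule and Rpa1 the call in the cochlea without the block. Pole, the catalytic subunit of the leading-strand polymerase, had 137, 148 and 166 CPM in vestibular heterozygotes and 97.6, 109 and 87.2 CPM in mutants, and fell by 0.62 (SE 0.13, adjusted p = 0.0494, up to 0.197 without 1 library; with the block 0.000423). Prim1, the primase subunit that starts new strands, had 17.2, 19.6 and 21.6 CPM against 11.0, 11.5 and 12.1 CPM in the vestibule (change -0.70, adjusted p = 0.0695, with the block 0.00327) and 11.9, 11.3 and 15.6 CPM against 19.6, 15.1 and 20.8 CPM in the cochlea (change 0.49, adjusted p = 0.324). The organs thus differed by 1.19 (SE 0.26, adjusted p = 0.0209). Rpa1, of the single-strand binding complex, had 57.7, 51.6 and 53.6 CPM in cochlear heterozygotes and 40.2, 29.0 and 36.9 CPM in mutants. It fell there by 0.61 (SE 0.15, adjusted p = 0.0354, up to 0.153 without 1 library). In the vestibule Rpa1 had 175, 157 and 160 CPM against 142, 120 and 133 CPM, also without overlap. That change was -0.32 (adjusted p = 0.242, with the block 0.00863), and the organs were not called different for Rpa1 (adjusted p = 0.566).

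Cdc25b, the phosphatase that activates Cdk1 at mitotic entry, rose in the vestibule. It had 117, 95.9 and 101 CPM in vestibular heterozygotes and 229, 185 and 194 CPM in mutants, and rose by 0.94 (SE 0.14, adjusted p = 0.00849) where every gene of the set had a negative change. In the cochlea it had 37.1, 32.5 and 36.8 CPM in heterozygotes and 23.5, 21.7 and 25.8 CPM in mutants (change -0.57, SE 0.15; adjusted p = 0.0571, with the block 0.00685). The groups separated in both organs, in opposite directions, and the organs differed by -1.51 (SE 0.19, adjusted p = 0.000445). Racgap1, the partner of Kif23 in centralspindlin, had 17.02, 20.2 and 21.7 CPM in cochlear heterozygotes and 35.7, 42.1 and 42.9 CPM in mutants and rose by 1.00 (SE 0.16, adjusted p = 0.00195). A rise of Kif23 was not detected in the cochlea (14.5, 20.98 and 25.95 CPM against 14.997, 27.6 and 27.2 CPM, change 0.16, SE 0.25). Each mutant did lie above the heterozygote of its number. In the vestibule Racgap1 had 48.7 to 60.2 CPM in heterozygotes against 55.4 to 58.0 CPM in mutants (change 0.04).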

How the data were processed

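Ribosome-bound RNA was sequenced in 12 libraries, 3 for each genotype and organ. The authors deposited CPM (counts per 1000000 reads) for each gene; alignment used TopHat and GRCm38, per the submitters' processing notes, whereas the annotation, the counter and whether it used strand are not given in the sources used here. CPM were whole multiples of 1 read for 100% of values (tolerance 1e-06 reads), and 0.119 to 0.729% of the reads behind the CPM lay outside the listed genes.

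Genes that reached 1 CPM in at least 3 of 6 libraries per organ entered the test on log2(CPM + 1) with limma 3.58.1 in R 4.3.3 (trend, Benjamini-Hochberg adjusted p under 0.05), mutant against heterozygote in each organ, and as the difference of the changes over 12 libraries. All 34 genes passed the filter in both organs. Fold changes on this scale understate the change of low genes. Alternatives were other pseudocounts, filters and rescalings, libraries left out, a replicate block, and, chosen after seeing the data, edgeR 4.0.16 and DESeq2 1.42.0 on the recovered reads and further fits with the block. Deviations from group means correlated between same-numbered libraries at 0.226, 0.226 and 0.420 in the cochlea and 0.766, 0.508 and 0.599 in the vestibule. Of unlike numbers, vestibular heterozygote 2 with mutant 3 and heterozygote 3 with mutant 2 also correlated, at 0.318 and 0.220. The other unlike numbers gave -0.640 to -0.477 in the vestibule and -0.240 to 0.0127 in the cochlea. Vestibular numbers 2 and 3 were thus told apart less clearly than number 1. The block rests on these correlations, and the labels do not name what a number shares.

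Values in every library are given for genes called in either fit and, in each organ and class, for the 3 with the largest change and the 3 with the highest mean CPM; pathway genes are named where called, with Cdkn1a, Cdkn1b, Cdkn1c, Cdkn2d, Rb1, Ccnd1 and Ccnd2 always. The 34 genes and the lists were chosen with earlier results of these data known. Exon overlaps and lengths came from GENCODE M21 on GRCm38, promoters from RefSeq. The limma fit within each organ, without the block, was tested on simulated independent libraries. The fits with the block and of the organ difference were not part of that test. Tables and figures used Python 3.11.15, pandas 2.3.3 and matplotlib 3.10.9.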

Additional observations from a re-analysis of the deposited data

Results flagged for a closer look

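In 4 genes of the pathway lists the cochlear change differed from the vestibular change by a test of the difference itself (limma over 12 libraries, adjusted p under 0.05). The cochlear minus the vestibular log2 change was -1.51 for Cdc25b and -1.03 for Cdkn1a, which were higher in vestibular mutants and lower or overlapping in the cochlea. It was 0.96 for Racgap1, which was higher in cochlear mutants and overlapped in the vestibule. For Prim1 it was 1.19, and that call was lost in 7 of the 21 alternatives, whereas the other 3 kept theirs in all 21. Organ and library kit cannot be told apart in these differences.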

How the results depend on the processing

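The replicate block moved the vestibular counts most. Against 0 of the 34 genes without it, the block called 16, or 14, 11 and 19 with both libraries numbered 1, 2 and 3 left out, 14 after TMM rescaling and 14 in edgeR; DESeq2 without the block called 2, and leaving out both libraries numbered 1 without the block called 1 (Mcm7). In the cochlea the block called 1 without the libraries numbered 2 and 1 without those numbered 3, and 0 otherwise. In the organ difference the block called 5 of 34, 13 pathway genes against 4, and 1955 genes against 461; DESeq2 gave 815, and leaving out 1 library 302 to 453, the lowest without vestibular heterozygote 2.

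Vestibular pathway calls were 3 without the block and 36 with it, 28, 16 and 37 with both libraries numbered 1, 2 and 3 left out, 29 after TMM rescaling, 29 in edgeR with the block, 7 in DESeq2, 6 without both libraries numbered 1 and no block, and 0 to 3 without 1 library. Cochlear pathway calls were 4, 2 with no filter and 1 to 3 without 1 library. Over all genes the vestibule gave 546 calls, 358 with no filter, 226 to 522 without 1 library, 863 without both libraries numbered 1, 1234 in DESeq2, and with the block 3634, or 3205, 2738 and 3180 with 1 number left out, 3529 after TMM rescaling and 3340 in edgeR. The cochlea gave 794, and with the block 1532, or 1390, 1702 and 1242 with 1 number left out, 1440 after TMM rescaling and 1397 in edgeR. TMM rescaling turned the vestibular block calls from 1637 higher and 1997 lower to 1939 and 1590.

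The class means of replication and mitosis genes moved by less than the spread between replicates in every alternative run. Leaving out 1 of 3 libraries cannot move a group mean by as much as their SD, so those runs are no check of stability. The signs of cochlear genes did depend on the library left out. Among the 21 alternatives, the call of Cdkn1c in the cochlea was lost in 3, Cdkn2d in 5, Rpa1 in 7, and in the vestibule Cdkn1a in 4, Cdc25b in 1 and Pole in 10. With 3 libraries a group, the median half-width of the cochlear intervals was 0.50 on the log2 scale. The cause of these shifts was not tested.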
